A study of Mus musculus with 4 samples.

Results

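The genes described here encode the major histocompatibility complex (MHC) proteins of the mouse and the machinery that loads them with antigen. They were chosen by symbol: every gene whose symbol starts with H2-, together with a fixed set of 13 partner genes (light chain, peptide transport, immunoproteasome, class I-like proteins, regulators and invariant chain), where an array row named that gene alone. This gave 46 of the 22180 genes tested, namely 34 with an H2- symbol and 12 of the 13 partners. A further 11 genes that meet the symbol rule, among them Cd74, H2-D1, H2-Q7 and H2-T22, stood only in rows shared with other genes and were not analysed here. RefSeq places 38 of the 45 members it could be matched to on chromosome 17.

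RNA was measured in livers of C57BL/6J mice, all male and wild type. One group received a methionine- and choline-deficient diet (MCD) and the other a normal diet (ND), each for 20 weeks from 6 weeks of age, and each group had 2 arrays. Each title reads mice with a replicate number. Whether an array holds 1 animal or several is not stated. The p-values rest on the spread between these arrays, which limma moderates with the spread of all genes, and not on a known spread between animals. The MCD diet is a widely used dietary model of fatty liver with inflammation.

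Class I molecules pair a heavy chain with the light chain B2m and show peptides, cut in the cytosol by the proteasome and carried into the endoplasmic reticulum by Tap1 and Tap2, to CD8 T cells. Most nucleated cells make them. Class II molecules pair an alpha with a beta chain, take up peptides cut in endosomes with the help of H2-DM, and show them to CD4 T cells. They are known mainly from dendritic cells, B cells and macrophages, and in the liver the resident macrophages, the Kupffer cells, and sinusoidal endothelial cells can carry them.

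The promoters of both classes are shown because the comparison between them is the subject here. Class II promoters are known for an X box and a Y box at a fixed spacing, which the RFX and NF-Y factors bind and on which Ciita acts. Class I promoters are known for a kappa B element and an interferon-response element upstream of related boxes. The sequences are from RefSeq, build GRCm38.p6, each 5′ to 3′ on the strand of its gene. In the class II examples capitals mark GNAAC, the letters of an X half-site, and ATTGG, the core of a Y box. The stretch of H2-Aa, chr17:34287847-34287924 on the minus strand, ends 24 bases before the start of the transcript. The stretch of H2-Eb1, chr17:34305756-34305832 on the plus strand, ends 35 bases before the start, and that of H2-DMb1, chr17:34153077-34153154 on the plus strand, ends 37 bases before it. In H2-K1, chr17:34000348-34000477 on the minus strand, which lies before the first of its 2 RefSeq starts, capitals mark GGATTNCC, TTTCACTTC and ATTGG in that order. In H2-Q10, chr17:35469894-35470038 on the plus strand, they mark TTTCACTTC.
H2-Aa: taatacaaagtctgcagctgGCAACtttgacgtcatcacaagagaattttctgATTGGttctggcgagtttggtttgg
H2-Eb1: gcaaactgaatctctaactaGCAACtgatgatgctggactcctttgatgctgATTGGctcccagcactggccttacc
H2-DMb1: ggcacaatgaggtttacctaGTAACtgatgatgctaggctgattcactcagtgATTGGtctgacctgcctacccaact
H2-K1: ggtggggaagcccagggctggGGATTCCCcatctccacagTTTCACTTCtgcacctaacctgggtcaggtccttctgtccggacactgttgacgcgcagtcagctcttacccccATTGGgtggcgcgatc
H2-Q10: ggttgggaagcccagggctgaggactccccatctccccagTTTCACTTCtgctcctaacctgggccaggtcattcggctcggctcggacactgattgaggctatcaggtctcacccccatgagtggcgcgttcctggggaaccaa

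The letters were searched on both strands in the 250 bases before each start, and they were chosen after the members' promoters had been read. At least 1 window was given for 33 of the 46 members, among them 8 class II genes and 16 class I heavy chain genes. H2-K1, H2-M9 and H2-DMa had 2 windows each, and a gene was counted where any of its windows matched. The shares of all RefSeq windows are counted per window, so they give only a rough scale for these counts of genes. GNAAC followed by ATTGG with 24 to 30 bases between them stood before 6 of the 8 class II genes (H2-Aa, H2-Eb1, H2-Eb2, H2-DMb1, H2-Oa and H2-Ob). It stood before 0 of the 16 class I genes, against 0.995% of all 32851 RefSeq windows. TTTCACTTC stood before 4 class I genes (H2-K1, H2-Q4, H2-Q10 and H2-M3) and 0 class II genes, against 0.402% of all windows. GGATTNCC stood before 3 class I genes (H2-K1, H2-Q4 and H2-M11), against 2.54% of all windows. ATTGG alone stood before 14 of the 16 class I and 8 of the 8 class II genes, against 33.8% of all windows. GNAAC alone stood before 12 and 8 of them, against 79.6% of all windows. A match describes letters in this window and is not evidence of binding.

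All values below are the deposited signals on a log2 scale, and all differences are MCD minus ND on that scale. Each has the moderated standard error (SE) of the limma fit. That SE mixes a gene's own spread with a variance shared by all genes, so it is not the spread of its arrays alone. A gene is called changed where limma's p-value, adjusted over all 22180 genes by Benjamini-Hochberg, is under 0.05. By that rule 9.98% of all genes were called, 6.37% higher and 3.62% lower in MCD livers. Both MCD arrays lay above both ND arrays in 25.0% of all genes and below both in 29.2%, and the median difference of all genes was -0.03. The arrays were alike in their medians over genes, at 3.01 and 3.05 for MCD and 2.96 and 2.97 for ND. Values of different genes come from different probes, so levels are compared between arrays and not between genes.

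Of the 46 members 6 were called, 13.0% of them. H2-Aa, a class II alpha chain, was the 1 member that rose. The 5 members that fell were H2-Ke6, Cd1d1, H2-Q1, H2-T24 and Psmb10. The MCD arrays lay above both ND arrays in 9 members, 19.6%, and below both in 19 members, 41.3%, while the diets overlapped in 18. The members' median difference was -0.12, with a range of -1.14 to 1.19. The plot of all members by array shows each of these values.

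**Figure D1:**
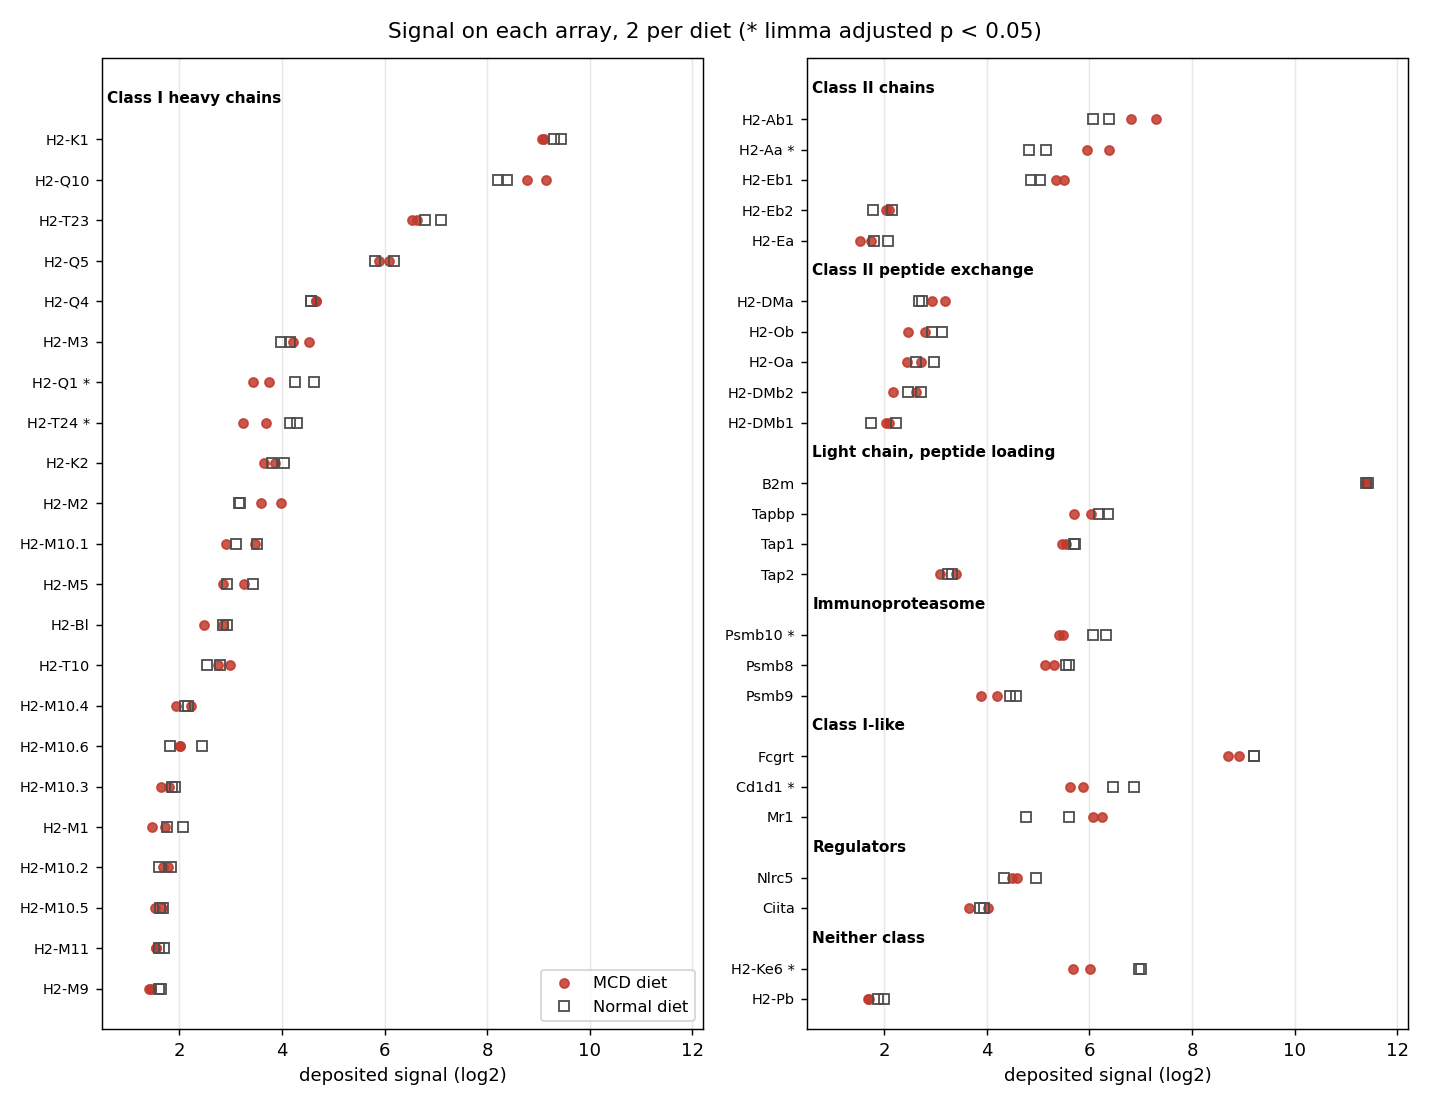
Deposited log2 signal (horizontal axis) of the 46 genes on each of the 4 arrays, with class I heavy chain genes in the left panel and all other members in the right panel. Red filled circles are the 2 MCD livers, open squares the 2 ND livers, and an asterisk marks the 6 called genes; H2-Aa is the one called gene whose circles lie to the right of its squares.

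Of the 5 class II chain genes 1 rose, 2 more stood above ND on both MCD arrays without a call, 1 overlapped and 1 stood below. Over all genes 6.37% rose, 25.0% stood above and 29.2% stood below. H2-Aa, the alpha chain of the A molecule, had signals of 5.95 and 6.38 in MCD livers, against 5.15 and 4.82 in ND livers. Both MCD values exceeded both ND values, and H2-Aa rose by 1.19 ± 0.19 (SE, n = 2 per diet), 2.28-fold, with a limma adjusted p of 0.0170. Its partner beta chain H2-Ab1 had 6.80 and 7.29 in MCD livers, against 6.37 and 6.07 in ND livers. The arrays of H2-Ab1 did not overlap, but its difference of 0.83 ± 0.20 missed the threshold with a limma adjusted p of 0.0582. H2-Eb1, the beta chain of the E molecule, had 5.35 and 5.51 in MCD livers, against 5.03 and 4.87 in ND livers, a difference of 0.48 ± 0.13 with a limma adjusted p of 0.0835. It too did not overlap between diets.

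H2-Ea encodes the alpha chain that would pair with H2-Eb1. C57BL/6 mice are known to carry a deletion that silences H2-Ea, and RefSeq lists it as a transcribed pseudogene. Its signals were 1.53 and 1.75 in MCD livers, against 1.80 and 2.07 in ND livers, and whether these lie above background was not tested. H2-Ea differed by -0.30 ± 0.15 and was not called. H2-Eb2, a further beta chain gene, had 2.03 and 2.09 in MCD livers, against 2.14 and 1.78 in ND livers, a difference of 0.10 ± 0.16, and its diets overlapped.

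The H2-Aa call did not hold without MCD array 2, where the limma adjusted p was 0.0571, or without ND array 2, where it was 0.0765. The difference of H2-Aa was 0.97 without MCD array 2 and 1.02 without ND array 2.

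The genes for class II peptide exchange gave no call. H2-DMa, the alpha chain of the exchange factor, had 2.93 and 3.19 in MCD livers, against 2.74 and 2.69 in ND livers, a difference of 0.35 ± 0.14 (limma adjusted p = 0.198). Its arrays did not overlap. Of the DM beta chains, H2-DMb1 had 2.04 and 2.10 in MCD livers, against 2.23 and 1.74 in ND livers, a difference of 0.08 ± 0.19. H2-DMb2 had 2.17 and 2.61 in MCD livers, against 2.73 and 2.46 in ND livers, a difference of -0.20 ± 0.19. The arrays of both beta chains overlapped. H2-Ob is a chain of H2-O, which restrains H2-DM in B cells. It had 2.47 and 2.80 in MCD livers, against 2.92 and 3.12 in ND livers, also without overlap. The difference of H2-Ob was -0.39 ± 0.16 (limma adjusted p = 0.206). H2-Oa, the other chain, had 2.45 and 2.71 in MCD livers, against 2.62 and 2.97 in ND livers, a difference of -0.21 ± 0.17, and its diets overlapped.

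The master regulators of both classes gave no call. Ciita, the co-activator of class II genes, had 3.66 and 4.03 in MCD livers, against 3.87 and 3.94 in ND livers, a difference of -0.06 ± 0.16. Nlrc5, its counterpart for class I genes, had 4.59 and 4.49 in MCD livers, against 4.96 and 4.33 in ND livers, a difference of -0.11 ± 0.22. Both overlapped between diets and neither was called. Among 7 further genes for RFX, NF-Y and CREB factors, all 7 measured, 1 was called: Nfya, a subunit of NF-Y, rose by 0.77 ± 0.14 (limma adjusted p = 0.0230). Over all genes 9.98% were called. The median difference of those 7 was -0.08, and Rfx5 differed by -0.18.

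The class I heavy chain genes, 22 in all, showed no called increase and 2 called decreases. H2-K1, the one classical class I gene measured alone that is not a pseudogene, had 9.07 and 9.11 in MCD livers, against 9.44 and 9.31 in ND livers. Both MCD values were below both ND values, with a difference of -0.29 ± 0.12 and a limma adjusted p of 0.219. H2-K2, which RefSeq lists as a transcribed pseudogene, had 3.64 and 3.87 in MCD livers, against 4.04 and 3.81 in ND livers, a difference of -0.17 ± 0.15 with overlapping arrays.

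The 2 called class I genes belong to the non-classical Q and T families. H2-Q1 had 3.43 and 3.75 in MCD livers, against 4.62 and 4.26 in ND livers. It fell by 0.84 ± 0.18, 1.80-fold lower in MCD livers, with a limma adjusted p of 0.0387. H2-T24 had 3.68 and 3.25 in MCD livers, against 4.16 and 4.29 in ND livers. Its diets did not overlap, and it fell by 0.76 ± 0.18, 1.69-fold lower in MCD livers, with a limma adjusted p of 0.0492. The H2-Q1 call was lost when any 1 of the 4 arrays was left out, with adjusted p of 0.161 without MCD array 1, 0.0563 without MCD array 2, 0.137 without ND array 1 and 0.0544 without ND array 2. The H2-T24 call was lost without MCD array 2 (0.136), ND array 1 (0.114) and ND array 2 (0.191), and both calls were lost when all rows were tested, with 0.0560 for H2-Q1 and 0.0691 for H2-T24. The H2-T24 call was also lost with an intensity trend in the moderation (0.0560).

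Other non-classical genes moved in both directions without a call. H2-Q10, known as a class I protein that hepatocytes secrete, had 9.15 and 8.78 in MCD livers, against 8.20 and 8.38 in ND livers, a difference of 0.67 ± 0.17 (limma adjusted p = 0.0595). A second, dimmer row of H2-Q10 went the other way, with 5.72 and 5.51 in MCD livers, against 6.75 and 6.20 in ND livers, a difference of -0.86. The direction of H2-Q10 therefore depends on the row. H2-T23, which encodes Qa-1, a ligand of inhibitory receptors of natural killer cells, had 6.53 and 6.63 in MCD livers, against 7.10 and 6.79 in ND livers, a difference of -0.37 ± 0.15 (limma adjusted p = 0.206). H2-Q4 differed by 0.11 ± 0.12 in the row used and by -0.16 in its dimmer row. H2-Q5, a transcribed pseudogene in RefSeq, differed by -0.02 ± 0.17 in the row used and by -1.08 in its dimmer row.

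The 12 H2-M genes gave no call, with 2 above (16.7%), 4 below (33.3%) and 6 overlapping, against 25.0% above and 29.2% below over all genes. H2-M2 had 3.59 and 3.97 in MCD livers, against 3.16 and 3.18 in ND livers, a difference of 0.61 ± 0.16 (limma adjusted p = 0.0723). H2-M3, which shows peptides that start with formyl-methionine, had 4.52 and 4.21 in MCD livers, against 4.15 and 3.98 in ND livers, a difference of 0.30 ± 0.16. The other H2-M genes include the H2-M10 family, known from sensory neurons of the vomeronasal organ, and they differed by -0.32 (H2-M1) to 0.0033 (H2-M10.2). H2-T10 and H2-Bl, both transcribed pseudogenes in RefSeq, differed by 0.21 and -0.23.

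Many H2- genes are close copies of each other, so probes designed for one can also bind transcripts of another, and values of single Q, T and M genes are uncertain for that reason. The 9 rows that name several genes, at least 1 of them meeting the symbol rule, differed by -0.76 to 0.73 with a median of -0.08. Of these 9 rows, 2 had both MCD arrays above both ND arrays and 4 had them below, against 25.0% and 29.2% of all genes.

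The genes that supply class I molecules with a partner and with peptide had differences below 0 in all 7 cases, with a median of -0.35. Over all genes 12373 of 22180 differences were below 0, and those of B2m and Tap2 were near 0 with overlapping arrays. B2m, the light chain, differed least, with 11.38 and 11.40 in MCD livers, against 11.39 and 11.43 in ND livers, a difference of -0.02 ± 0.12. The sign of B2m turned to 0.06 after quantile normalization. Psmb10, a catalytic subunit of the immunoproteasome, had 5.48 and 5.41 in MCD livers, against 6.32 and 6.07 in ND livers. It fell by 0.75 ± 0.14, 1.69-fold lower in MCD livers, with a limma adjusted p of 0.0242. The call was lost without MCD array 1 (0.0901), MCD array 2 (0.0919) and ND array 1 (0.0988).

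The other immunoproteasome subunits were lower on both MCD arrays without a call. Psmb9 had 3.88 and 4.21 in MCD livers, against 4.56 and 4.46 in ND livers, a difference of -0.47 ± 0.15 (limma adjusted p = 0.124). Psmb8 had 5.14 and 5.31 in MCD livers, against 5.61 and 5.54 in ND livers, a difference of -0.35 ± 0.13 (limma adjusted p = 0.161). Tapbp, which holds class I molecules at the peptide transporter, had 6.04 and 5.71 in MCD livers, against 6.35 and 6.19 in ND livers, a difference of -0.40 ± 0.16 (limma adjusted p = 0.185). Its dimmer row differed by -0.25. Among the transporter subunits, Tap1 had 5.55 and 5.47 in MCD livers, against 5.71 and 5.70 in ND livers, a difference of -0.20 ± 0.12 without overlap. Tap2 had 3.09 and 3.39 in MCD livers, against 3.24 and 3.32 in ND livers, a difference of -0.04 ± 0.15 with overlap.

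Genes beside this route were counted from lists, while over all genes 6.37% were called higher and 3.62% lower. Of 7 genes listed for chaperones and peptide trimming in the endoplasmic reticulum, 0 rose and 1 fell. That list also holds Sppl2a, an endosomal protease of the class II invariant chain, which differed by -0.24 without a call. Erap1, which trims peptides to fit class I molecules, fell by 0.59 ± 0.12 (limma adjusted p = 0.0354). Of 7 genes for the PA28 activator and the constitutive proteasome, 0 were called, with a median difference of -0.19.

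The class I-like genes differed in direction. Cd1d1, which shows lipids to natural killer T cells, had 5.88 and 5.63 in MCD livers, against 6.47 and 6.87 in ND livers. It fell by 0.91 ± 0.18, 1.88-fold lower in MCD livers, with a limma adjusted p of 0.0295. Mr1, which shows vitamin B metabolites to mucosal-associated invariant T cells, had 6.25 and 6.06 in MCD livers, against 5.59 and 4.77 in ND livers. The ND arrays of Mr1 lay far apart, and its difference of 0.97 ± 0.27 was not called (limma adjusted p = 0.0809). Fcgrt, the receptor that recycles immunoglobulin G and albumin, had 8.71 and 8.91 in MCD livers, against 9.22 and 9.21 in ND livers, a difference of -0.40 ± 0.13 (limma adjusted p = 0.119).

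The Cd1d1 call was lost without MCD array 1 (0.0721), MCD array 2 (0.113) and ND array 2 (0.114). Without ND array 1 the difference of Mr1 was 1.39 and it was called, with a limma adjusted p of 0.0155.

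H2-Ke6 had the most negative difference of the 46 and belongs to neither class. RefSeq gives Hsd17b8 as its other name, a hydroxysteroid dehydrogenase whose gene lies inside the MHC region. It had 6.01 and 5.68 in MCD livers, against 6.98 and 7.004 in ND livers. H2-Ke6 fell by 1.14 ± 0.15, 2.21-fold lower in MCD livers, with a limma adjusted p of 0.0082. Without it, 5 of 45 members were called, 11.1%. H2-Pb, the other gene of neither class, differed by -0.24 ± 0.12.

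The classes are set side by side as a description, with no test of the difference between them. The class I genes include the transcribed pseudogenes H2-K2, H2-Bl, H2-Q5 and H2-T10, and the class II genes include the transcribed pseudogene H2-Ea. Calls made up 9.09% of the class I heavy chain genes and 10.0% of the class II genes, both near the 9.98% of all genes. Both MCD arrays stood above both ND arrays in 18.2% of class I genes and in 40% of class II genes, against 25.0% of all genes, and below them in 36.4% of class I and in 20% of class II genes, against 29.2%. Of the 22 class I heavy chain genes 4 stood above, 8 below and 10 overlapped, with a median difference of -0.11, a mean of -0.09 and a range of -0.84 to 0.67. Of the 10 class II genes 4 stood above, 2 below and 4 overlapped, with a median difference of 0.09, a mean of 0.19 and a range of -0.39 to 1.19. The class I median minus the class II median of these differences was -0.20. Taken on the median signals of each array, the same subtraction gave 0.49 and 0.50 in MCD livers, against 0.40 and 0.23 in ND livers. That is the other direction. The class I median signal was 2.95 and 3.26 in MCD livers, against 3.14 and 3.06 in ND livers. For class II it was 2.46 and 2.76, against 2.73 and 2.83. The direction of the class comparison therefore depends on the measure.

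The size of the class II summary changed with the dim genes. Only H2-Aa, H2-Ab1 and H2-Eb1 had a mean signal above the median of all genes, 2.999, and their median difference was 0.83. Their median signal was 5.95 and 6.38 in MCD livers, against 5.15 and 4.87 in ND livers. The 7 other class II genes had a median difference of -0.20. Among class I genes the 12 above that signal had a median difference of -0.12 and the 10 below it -0.11. The class I median was -0.046 without MCD array 1 and -0.19 without MCD array 2. The class II median was 0.0595 without MCD array 2, 0.31 without ND array 1 and -0.0607 without ND array 2. After median centring of the arrays the class I and class II medians were -0.18 and 0.024.

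**Figure D2:**
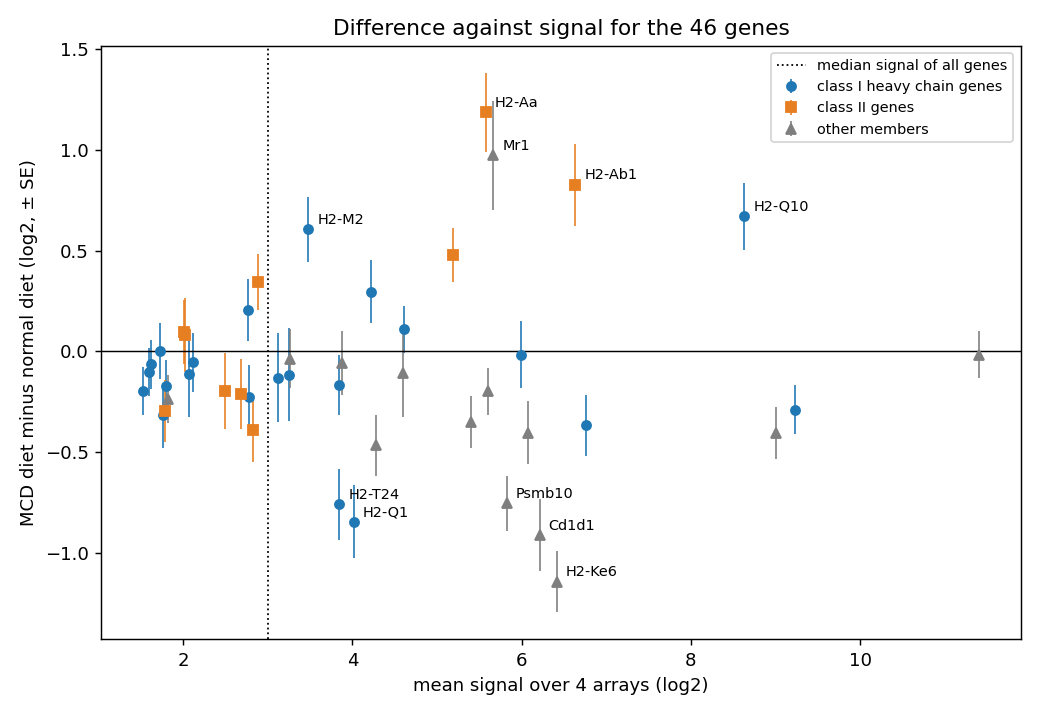
MCD minus ND difference in log2 signal (vertical axis, bars are 1 SE) against the mean log2 signal over the 4 arrays (horizontal axis) for the 46 genes. Blue circles are class I heavy chain genes, orange squares class II genes, grey triangles the other members, and the dotted line is the median signal of all genes, 2.999. The 3 class II genes to the right of the line lie at 0.48 to 1.19, and the 7 to its left lie between -0.39 and 0.35.

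The order of the genes on chromosome 17 is set beside their differences, and no effect of position was tested. H2-Ab1, H2-Aa and H2-Eb1 follow each other in RefSeq order, and theirs are the 3 positive differences of the class II chains that do not overlap between diets. Psmb9, Tap1, Psmb8 and Tap2, which serve class I, lie in the same stretch between H2-DMb1 and H2-Ob, and their differences were -0.47, -0.20, -0.35 and -0.04. H2-Ke6 lies between H2-K1 and H2-Oa, with differences of -0.29 and -0.21 on its sides.

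**Figure D3:**
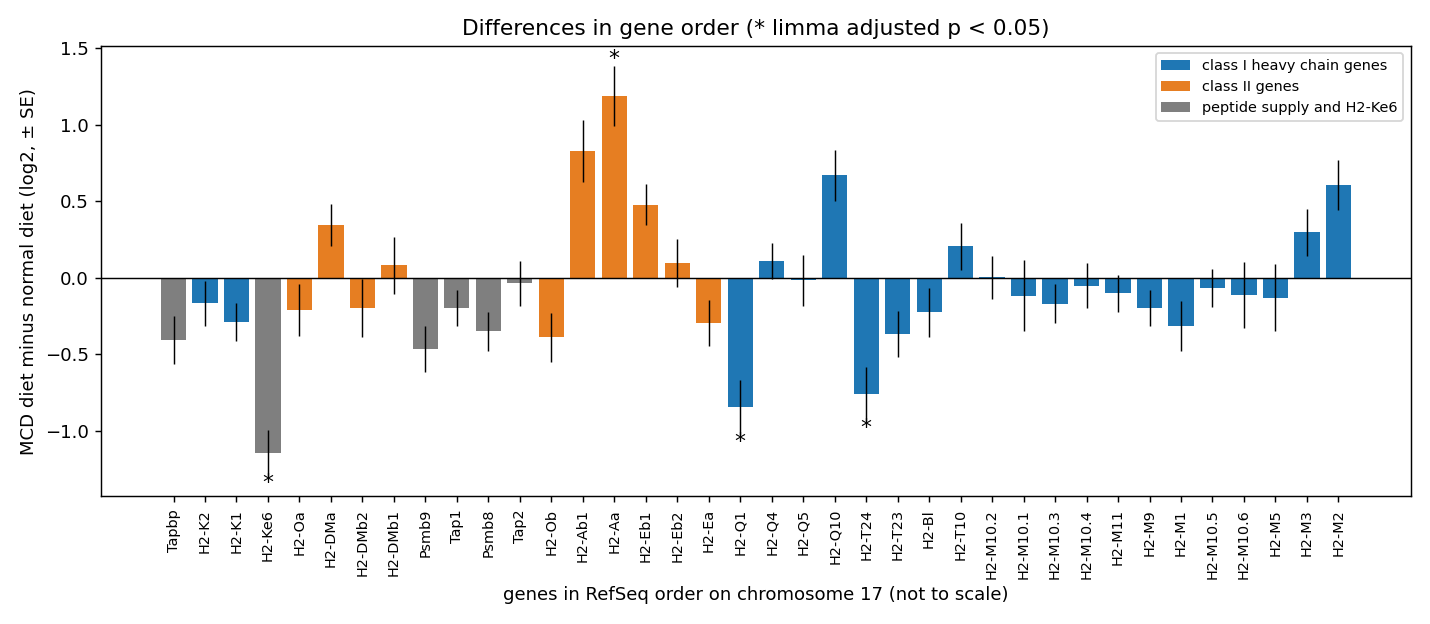
MCD minus ND difference in log2 signal (bars, with 1 SE) for the 38 members on chromosome 17 in RefSeq gene order, not to scale. The tallest bars above 0 are those of the neighbours H2-Ab1 and H2-Aa, at 0.83 and 1.19, and the deepest below 0 is H2-Ke6 at -1.14.

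Genes of the wider pathway were counted from lists, which were chosen with earlier results of these data known. The scale for these counts is the 6.37% of all genes called higher and the 3.62% called lower. Of 10 listed endolysosomal genes that cut or handle class II antigen, 8 rose and 0 fell, with a median difference of 1.30. All 10 lay above ND on both MCD arrays, against 25.0% of all genes. Sppl2a, an endosomal protease counted in another list, lay below ND on both MCD arrays, with a difference of -0.24 and no call. Ctss, the cathepsin that degrades the invariant chain, rose by 3.07 ± 0.12. Rab7b rose by 1.75 ± 0.20. Lgmn, an asparaginyl endopeptidase, rose by 1.65 ± 0.20, and Ifi30, which reduces disulfide bonds of antigens, rose by 1.49 ± 0.24. Ctsh and Cst3 differed by 0.09 and 0.26 and were not called. These lysosomal genes are also known from macrophages as such.

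Of 14 genes of the interferon gamma response 12 were analysed, and 2 rose and 2 fell, with a median difference of -0.10. The receptor chains Ifngr1 and Ifngr2 rose by 1.10 ± 0.19 and 0.90 ± 0.18. Cxcl9, a chemokine induced by interferon gamma, fell by 0.93 ± 0.15, and Igtp, an induced GTPase, fell by 0.85 ± 0.13. Ifng itself had 1.99 and 2.03 in MCD livers, against 2.05 and 2.24 in ND livers, and was not called. Of 9 genes for costimulation and surface turnover 2 rose and 0 fell, with a median difference of 0.21. They were Icosl, the ligand of Icos, with 0.70 ± 0.13, and Cd274, which encodes PD-L1, with 0.55 ± 0.12. Cd80 and Cd86 differed by 0.14 and 0.21.

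Marker genes of cells that carry class II or class I molecules were set beside these values, and their part in the results was not tested. In bulk liver, fewer cells of a type and less RNA per cell cannot be told apart. For the counts of markers, the scale is again 6.37% of all genes called higher and 3.62% called lower. Of 12 monocyte and macrophage markers 11 were analysed, and 10 rose and 0 fell, with a median difference of 1.31. Gpnmb, Trem2 and Cd68 rose by 7.33 ± 0.20, 3.47 ± 0.22 and 3.43 ± 0.24. The summed linear signal of the 11 was 2436 and 1770 in MCD livers, against 256 and 248 in ND livers.

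Of 12 dendritic cell markers 11 were analysed, and 2 rose and 0 fell, with a median difference of 0.20. Itgax, which encodes CD11c and is also known from macrophages, rose by 3.03 ± 0.18, and Irf8 rose by 0.997 ± 0.12. Flt3, Xcr1 and Zbtb46 differed by 0.42, 0.20 and -0.02 and were not called. The summed signal of the 11 was 246 and 218 in MCD livers, against 149 and 163 in ND livers. Most of that sum came from Itgax, with 56.96 and 40.5 in MCD livers, against 5.99 and 5.77 in ND livers, and Cd209a, with 115 and 92.8 in MCD livers, against 77.9 and 84.8 in ND livers. The other 9 markers summed to 73.8 and 84.3 in MCD livers, against 65.1 and 72.7 in ND livers. Itgax and Cd209a were singled out after their values were seen.

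Of 7 B cell markers 6 were analysed, with 0 called, a median difference of -0.21 and 0 above the median signal of all genes. Their summed signal was 32.0 and 35.9 in MCD livers, against 38.6 and 38.8 in ND livers. T cell markers, 9 of 11 analysed, had 0 called and a median difference of 0.13. Their summed signal was 61.6 and 69.3 in MCD livers, against 59.8 and 57.7 in ND livers. The 8 natural killer cell markers had 0 called and sums of 50.4 and 46.01 in MCD livers, against 48.2 and 46.2 in ND livers.

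Of 8 Kupffer cell markers 0 rose and 4 fell, with a median difference of -0.80. The differences were -2.06 for Cd163, -1.66 for Clec4f, -1.20 for Fcna and -0.89 for Timd4. Of the other 4, Folr2 and Cd5l differed by -0.71 and -0.49 and Vsig4 and Marco by 0.64 and 0.32, none called, and the diets overlapped in all but Folr2. The sums were 361 and 196 in MCD livers, against 369 and 351 in ND livers. The sum on MCD array 1 leaned on Vsig4, the marker with the highest signal there. Vsig4 had 7.51 and 6.29 in MCD livers, against 6.33 and 6.19 in ND livers. Of 8 sinusoidal endothelial markers 0 rose and 3 fell (Oit3, Stab2 and Kdr), with a median difference of -0.33 and sums of 626 and 598 in MCD livers, against 865 and 799 in ND livers. Of 10 hepatocyte markers 0 rose and 1 fell (Apoa1), with a median difference of -0.15 and sums of 23671 and 23509 in MCD livers, against 25304 and 24964 in ND livers. Of 5 pan-leukocyte genes 3 rose, Cd53 by 2.67, Ptprc by 1.63 and Laptm5 by 1.57. The sums of the 5 were 387 and 287 in MCD livers, against 113 and 101 in ND livers.

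The MCD arrays also differed from each other. Every class II gene was higher on MCD array 2 than on MCD array 1. That holds for H2-Aa, H2-Ab1 and H2-Eb1 and also for the dim ones, such as the pseudogene H2-Ea (1.53 and 1.75). Array 2 was also higher in 9 of 11 dendritic cell, 8 of 9 T cell, 5 of 6 B cell and 3 of 8 Kupffer cell genes. The same held for 2 of 8 natural killer cell, 2 of 11 macrophage, 1 of 5 pan-leukocyte, 4 of 8 endothelial and 5 of 10 hepatocyte genes. In the pathway lists array 2 was higher in 8 of 9 costimulation and turnover genes, 9 of 12 interferon gamma genes and 1 of 10 endolysosomal genes. The median over all genes was 3.01 on MCD array 1 and 3.05 on MCD array 2. The share of all genes higher on array 2 was not counted, so these counts have no scale beside them. With 2 arrays they describe the arrays and do not point to a source.

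**Figure D4:**
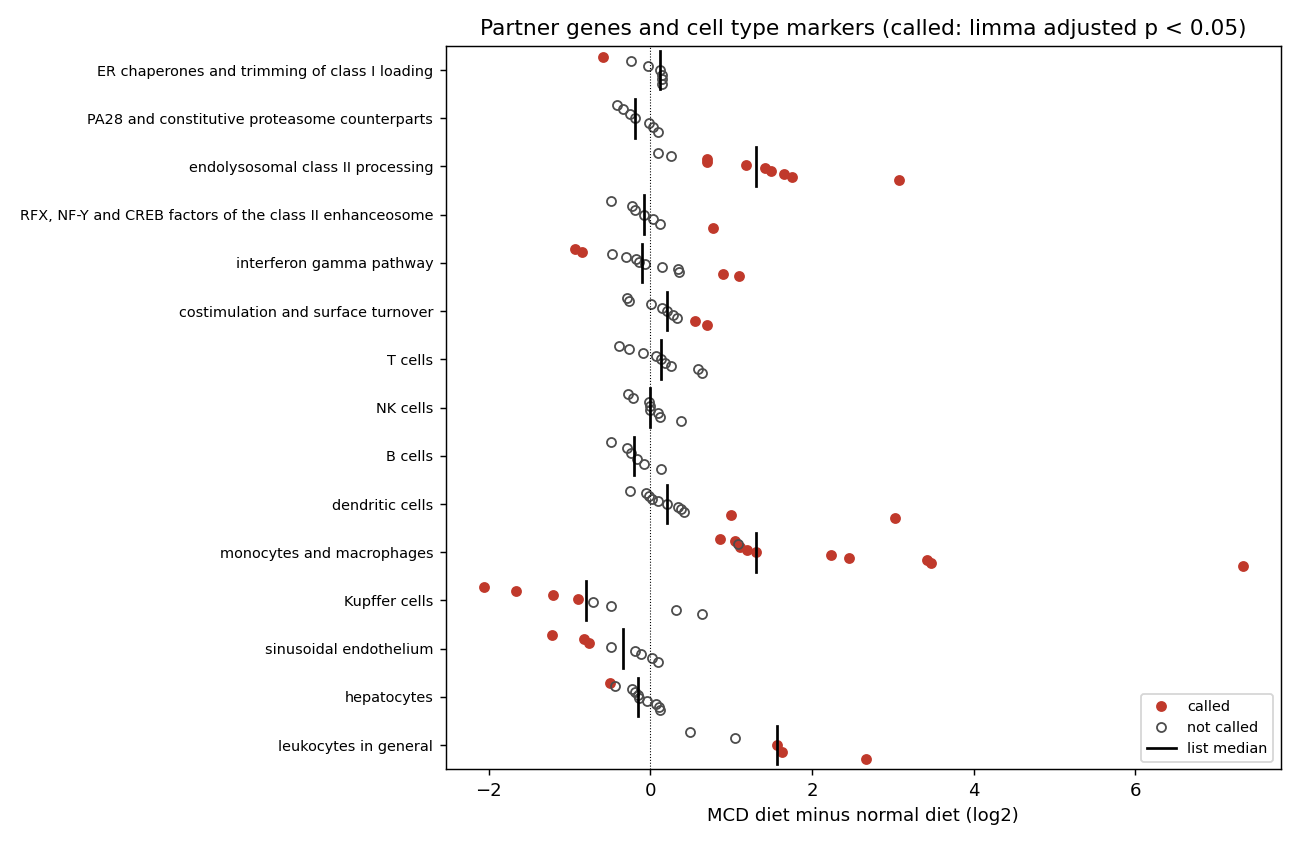
MCD minus ND difference in log2 signal (horizontal axis) of the genes in 15 lists of partner genes and cell type markers, 1 point per gene. Red points are called genes, open points are not called, and the black line is the list's median. The endolysosomal, macrophage and leukocyte lists have medians of 1.30, 1.31 and 1.57, and the Kupffer cell list has a median of -0.80.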

How the data were processed

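Total liver RNA was amplified, labelled with biotin as cDNA and hybridised to Mouse Gene 2.1 ST arrays. The authors deposited 1 value per array row, for which the submitters' processing notes name Transcriptome Analysis Console. Neither its version nor the normalization is stated there. The deposited values were read as log2 signals. The base is not stated and was inferred from their range, so folds depend on it. Of 34472 rows 23521 name 1 gene, 1814 several and 9137 none, by the platform annotation, and 0 columns of per-sample values were left unused. Rows naming 1 gene were kept, with the row of highest mean over all arrays for a gene with several, which left 22180 genes. All genes were fitted with limma 3.58.1 in R 4.3.3 on 4 arrays, with no block, no filter and two-sided tests. Moderation gave 6.06 total degrees of freedom, those of the residuals and of the prior together. Members, gene lists and motifs were chosen with earlier results of these data known. In 20 simulated sets with 200 changed genes among 22180, limma called 46.9% of genes changed by 1, 96.2% of those changed by 2, and 5.00% of calls were false. Those sets drew normal noise from limma's own variance model, and 2214 genes were called in the real data. The rates therefore check the fit under its own model and do not give its sensitivity or false share in these data. The number of arrays limits the precision. By the rule for named genes, array values are given for called members, class II genes, classical class I genes and the partners, other class I members by range and extremes, and up to 4 called genes per list.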

Additional observations from a re-analysis of the deposited data

How the results depend on the processing

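Under the 12 alternatives that keep the adjusted threshold, H2-Ke6 stayed called in 12, H2-Aa in 10, Psmb10 in 9, Cd1d1 in 8, and H2-Q1 and H2-T24 in 6 each. The alternative of an unadjusted p with 2-fold change kept H2-Ke6 and H2-Aa and lost the other 4, whose differences are under 2-fold. Beside 1 member called higher, 2 were called after quantile normalization, without the dimmest 25% of genes, with an intensity trend and with a replicate block, and 3 without the dimmest 50%. Leaving out 1 array gave 0 to 2. Beside 5 called lower, 3 were called when all rows were tested, 2 with the replicate block, and 1 at an unadjusted p under 0.05 with 2-fold change, and leaving out 1 array gave 1 to 2. Over all genes 2214 were called, and 1155 by the unadjusted rule, 1050 without MCD array 1, 1321 without ND array 1 and 1093 without ND array 2. Median centring split the calls into 1181 higher and 1008 lower, against 1412 and 802. Same-numbered arrays had deviations correlated at 0.05 over genes. With 2 pairs and no stated design, this cannot settle whether the numbers mark a pairing or a batch. The replicate block kept 3 of the 6 calls, lost Cd1d1 (0.0545), H2-Q1 (0.0699) and H2-T24 (0.0724), and added Mr1 (limma adjusted p = 0.0461). H2-Ab1 was called under both filters on dim genes, H2-Q10 under 3 alternatives and Psmb9 under 1.

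The class II median was 0.35 and 0.83 without the dimmest 25% and 50% of genes, which leave 35 and 28 members, and class I minus class II was -0.46 and -0.95. Leaving out 1 array gave -0.0607 to 0.31 for the class II median and -0.43 to -0.0693 for class I minus class II. No called gene changed sign. Quantile normalization gave 0.0558 for B2m, 0.0131 for H2-M10.4, 0.000285 for H2-M10.5 and -0.0688 for H2-Q4, median centring gave -0.0629 for H2-M10.2, and averaging a gene's rows gave -0.0927 for H2-Q10 and -0.0265 for H2-Q4. Leaving out 1 array gave ranges across 0 in 14 uncalled genes: B2m -0.0405 to 0.00897, Ciita -0.24 to 0.13, H2-DMb1 -0.17 to 0.33, H2-DMb2 -0.42 to 0.0236, H2-Eb2 -0.0859 to 0.28, H2-M10.1 -0.40 to 0.17, H2-M10.2 -0.12 to 0.13, H2-M10.4 -0.20 to 0.10, H2-M10.5 -0.13 to 0.00227, H2-M10.6 -0.43 to 0.21, H2-M5 -0.38 to 0.12, H2-Q5 -0.20 to 0.17, Nlrc5 -0.42 to 0.21 and Tap2 -0.19 to 0.11. The causes were not tested.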
